A study of Homo sapiens with 6 samples.

Results

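The replication-dependent histone genes were taken as every gene symbol of the form H1-number, H2AC, H2BC, H3C or H4C followed by a number, which gave 70 of the 28307 gene symbols in the deposited tables. Of these, 10 encode linker histone H1, 16 encode H2A, 17 encode H2B, 13 encode H3 and 14 encode H4. They were measured in SW480, an established human colon adenocarcinoma cell line that had been transduced with lentivirus and kept under selection with puromycin. The control lines carried pLENTI CMV Clover, which encodes a fluorescent protein (3 libraries, Clover), and the other lines carried pLENTI CMV Z18trunc, which encodes a shortened version of ZC3H18, a protein of nuclear RNA surveillance (3 libraries, Z18trunc). Both inserts are driven by the CMV promoter, so every line shared the vector and the selection. RNA was selected for poly(A) tails before stranded paired-end sequencing, so that only RNA with a tail or with a long run of A, and what else the selection carried over, was read.

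Core histones H2A, H2B, H3 and H4 form the nucleosome, and H1 binds the DNA between nucleosomes. The mRNAs of replication-dependent histone genes are made in S phase and are the main class of mRNA in animal cells without a poly(A) tail. Their 3′ end is instead made by a cut just past a conserved stem-loop, which is bound by SLBP and cut by CPSF3 with the U7 small nuclear ribonucleoprotein. Histone RNA with a tail is known to appear when this cut is missed and a downstream polyadenylation signal is used, and also in cells that have stopped dividing. The nuclear exosome, to which ZC3H18 connects capped RNA, is known to act on RNA that extends past its proper end. Replacement histones such as H3-3A, H3-3B and H2AZ1 are ordinary polyadenylated genes and are made outside S phase.

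The stem-loop is the feature on which 3′ end formation of these genes turns. It was searched for in the hg38 genome over the whole of each member's deposited gene model and up to 300 bases past its end. It was found in 66 of the 70 members, with 69 gene models holding an exact match and 3 holding 1 mismatch. Among the last 200 bases before and the first 200 bases after the end of each model, an exact match was present for 62 of 76 member models (81.6%) and for 5 of 29552 models of other genes (0.0169%), which were H2AW, H2BC20P, H2BU1, H3-4 and H4-16. None was found for 4 members, all of H1. One of them, H1-10, is known as a replication-independent linker histone with an ordinary poly(A) tail, so the name of the group does not hold for it, and sums are also given over the members with a stem-loop alone. The sequences that follow are RNA-sense DNA, 5′ to 3′, with the 16 bases of the stem-loop in capitals. They show the most abundant members of each class and those with the smallest p-values.
H2BC21, chr1:149886179-149886208, minus strand: ccaaaGGCTCTTTTCAGAGCCacccaccta
H2AC18, chr1:149851569-149851598, plus strand: caaaaGGCTCTTTTCAGAGCCacccacgtt
H1-2, chr6:26055735-26055764, minus strand: caaaaGGCTCTTTTCAGAGCCaccactgat
H2BC12, chr6:27146357-27146386, minus strand: ccaaaGGCTCTTTTAAGAGCCacttaaatt
H2BC5, chr6:26158582-26158611, plus strand: ccaaaGGCTCTTTTAAGAGCCacgcatgtt
H3C8, chr6:26270914-26270943, minus strand: aaaaaGGCTCTTTTAAGAGCCgcctacttt
H3C10, chr6:27810511-27810540, plus strand: ccaaaGGCTCTTTTCAGAGCCacccacatg
H4C15, chr1:149833027-149833056, plus strand: ccaaaGGCCCTTTTTAGGGCCgaccacttg
H4C5, chr6:26204996-26205025, plus strand: tcaaaGGCCCTTTTCAGGGCCgcccacagt

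The 66 members carried 10 different stem-loops. The one shown for H2BC21 was shared by 38 members (4 of H1, 12 of H2A, 11 of H2B and 11 of H3), and the one shown for H3C8 by 9 members, of which 5 were H2B genes. H4 genes had their own: 9 shared the one shown for H4C5 and 4 the one shown for H4C15. In the genome, 55 members lay on chromosome 6 and 11 on chromosome 1. The deposited gene models ended within 60 bases of the stem-loop for 59 members. For 7 members (H2BC4, H2BC5, H2BC12, H2BC18, H2BC21, H3C6 and H4C15) a model ran on past it, by 1728 bases in H2BC21, 8073 in H2BC12 and 12746 in H2BC5. A polyadenylation signal (AATAAA or ATTAAA) lay in the last 50 bases of 6 of these 7 members. Over all member models such a signal was found in 15.8%, and over models of other genes in 65.6%.

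The libraries held 18226033 to 22463310 aligned fragments, and the deposited TPM (read abundance divided by gene length and scaled to a fixed total) summed to 1000000 in each. ZC3H18 measured 57.2 ± 5.39 TPM in Clover and 763 ± 31.2 TPM in Z18trunc (SD, n = 3). In the Z18trunc value, reads of the insert and of the cell's own gene were not told apart. Of the epithelial and intestinal markers examined, KRT8, KRT18, KRT19, EPCAM, CDX2, AXIN2, ASCL2, CDH1 and VIL1 were present in every library, CDX1 and LGR5 were listed at 0 in all, and CDH17 did not pass 0.0345 TPM. Among blood cell markers PTPRC was listed at 0 in all 6 libraries, CD3E did not pass 0.321 TPM and CD68 ranged from 2.75 to 4.48 TPM. Of 4 fibroblast markers COL3A1 and DCN were listed at 0 in all, COL1A1 ranged from 1.14 to 1.55 TPM and PDGFRB from 0.478 to 0.974 TPM. The median gene lay 0.11 higher in Z18trunc on the log2(TPM + 1) scale, and it lay at -0.006 after quantile normalization. Counts of genes are therefore read against the shares over all 13300 genes tested.

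Members differed widely in abundance. Averaged over the 6 libraries, 5 members had at least 100 TPM, 6 had 10 to 100 TPM, 34 had 1 to 10 TPM, 19 lay between 0 and 1 TPM and 6 (H1-7, H1-8, H2AC1, H2BC1, H4C6 and H4C13) were listed at 0 in every library. Genes with a mean of at least 1 TPM were tested, which took in 45 members and left out 25. The limit was set on the mean of all 6 libraries, so values in either group could carry a gene past it. The shares over all genes rest on the same limit. Just above that limit were H3C1 and H2AC15, with 0.873 and 0.725 TPM in Clover and 1.15 and 1.55 TPM in Z18trunc. H3C2 also passed with a Clover mean under 1 TPM, and H2BC13 with a Z18trunc mean under 1 TPM (0.928 TPM). Just below it were H3C6 and H2AC7, with 1.03 and 0.621 TPM in Clover and 0.923 and 1.08 TPM in Z18trunc. H2AC18 made up 78.6% of summed H2A RNA and H2BC12 73.3% of summed H2B RNA. H3 had no such member, with H3C8 leading at 23.6%.

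**Figure D1:**
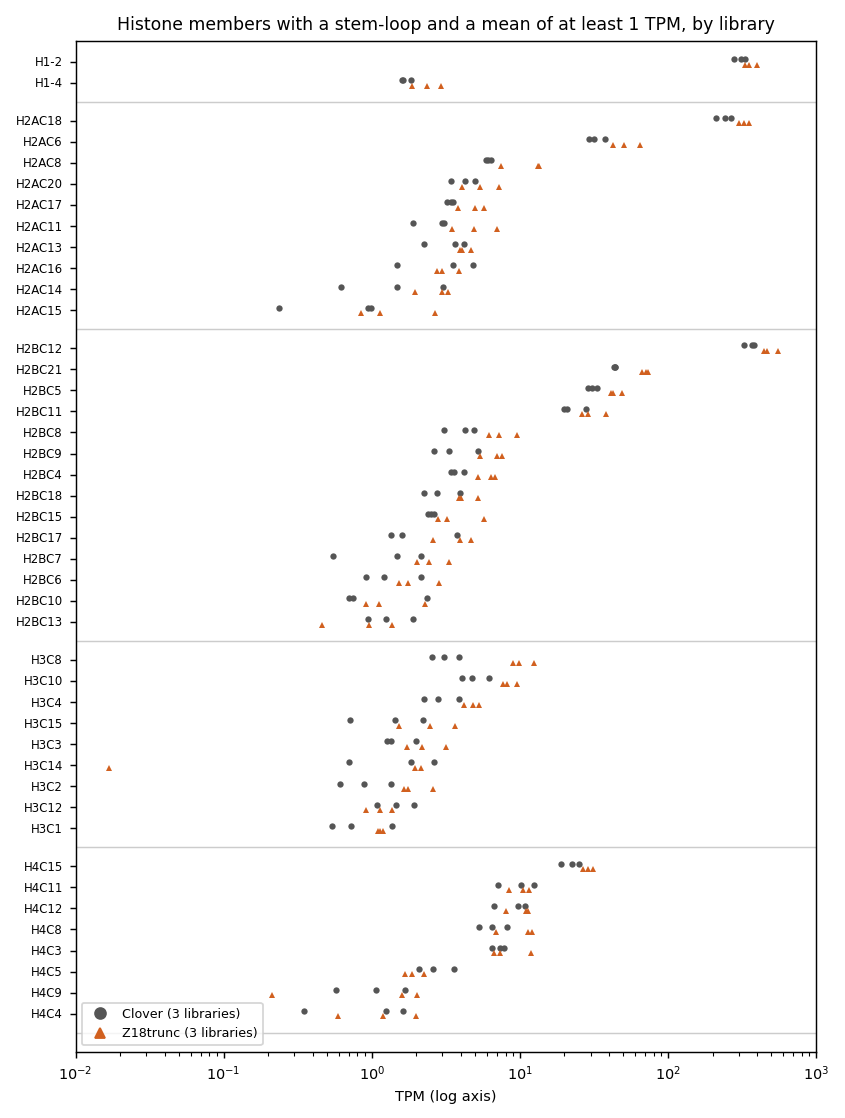
TPM of the 43 histone members with a stem-loop and a mean of at least 1 TPM, on a log axis, grouped from top to bottom as H1, H2A, H2B, H3 and H4; grey circles are the 3 Clover libraries and orange triangles the 3 Z18trunc libraries. In 18 members all triangles lie to the right of all circles, and in none do all lie to the left.

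In these poly(A)-selected libraries 41 of the 45 tested members had a log2 difference above 0 in Z18trunc against Clover, as did 9042 of all 13300 genes, and no single member passed the adjusted test. Whether the histone reads came from RNA with a tail was not measured. At a limma adjusted p under 0.05, 2 of 13300 genes (0.015%) and 0 of the 45 members were called. At an unadjusted limma p under 0.05, 19 of the 45 members (42.2%) were higher in Z18trunc, where the background over all genes was 25.6%, and 0 were lower, where it was 2.9%. The lowest of the 3 Z18trunc values exceeded the highest of the 3 Clover values in 19 members (42.2%, background 30.1%), and the reverse held in 0 (background 6.73%). The median member lay 0.42 higher on the log2(TPM + 1) scale, against 0.11 over all genes. With an intensity trend in the limma fit 60 genes passed, among them the 2 members H2BC21 and H3C8, with adjusted p-values of 0.0175 and 0.0259. After quantile normalization 1 gene (0.00752%) and 0 members were called, 15 members were higher at an unadjusted p under 0.05 (33.3%, background 12.8%) and 1 was lower (2.22%, background 10.9%), and the median member lay 0.28 higher. Under that scaling 13 members lay above without overlap (28.9%, background 16.8%) and 1 lay below (2.22%, background 16.2%).

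Short length and low abundance, both common among the members, were set beside these counts. Of 434 other genes spanning under 1000 bases, 13.4% were higher at an unadjusted limma p under 0.05, with a median log2 difference of 0.08. Of 5298 other genes with 1 to 10 TPM, 29.0% were higher, with a median of 0.18. The 34 members in that abundance range had 12 higher (35.3%) and a median of 0.42.

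**Figure D2:**
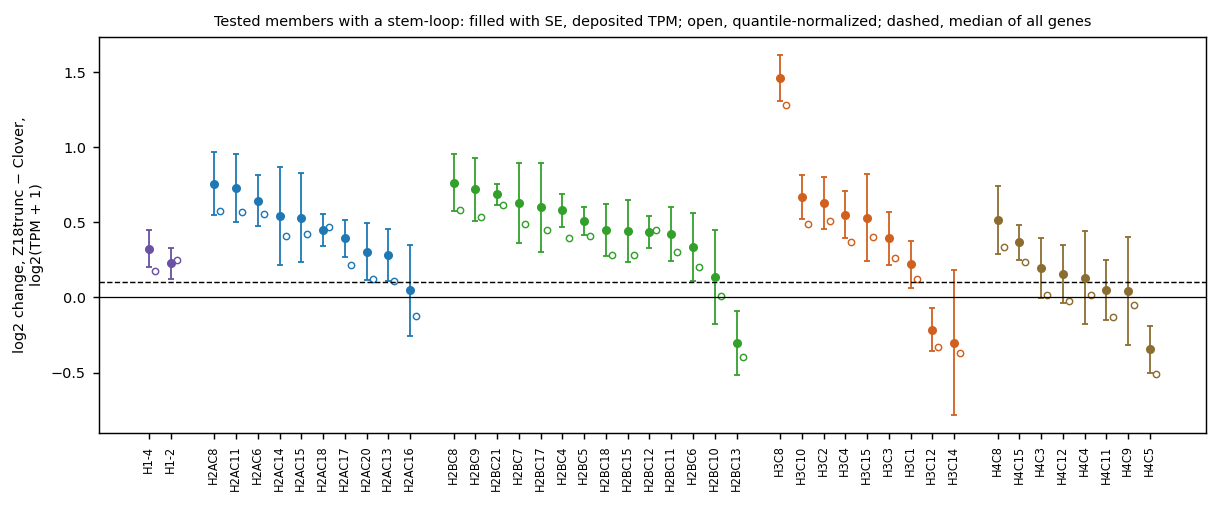
Log2 difference of Z18trunc over Clover on the log2(TPM + 1) scale for each of the 43 tested members with a stem-loop, by class; filled points with bars are the fitted value and its SE from deposited TPM, open points the value after quantile normalization, and the dashed line is the median of all 13300 genes (0.11). Most filled points lie above the dashed line, H3C8 is highest at 1.46, and the H4 members, with a median of 0.14, lie closest to it among the core histones.

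H2B was the class with the most tested members. Of 17 members 14 were tested, 7 were higher at an unadjusted limma p under 0.05 (background 25.6%) and 7 were separated (background 30.1%), with a median log2 difference of 0.48. After quantile normalization 5 were separated (35.7%, background 16.8%) and the median was 0.40. H2BC21 (chr1:149884460-149886682, minus strand), a gene also known to give transcripts with a tail, had 43.8, 44.1 and 42.9 TPM in Clover and 67.3, 73.8 and 71.6 TPM in Z18trunc. The Clover values differed from each other by little over 1 TPM and every Z18trunc value lay far above them. The ratio of means was 1.63 and the log2 difference 0.69 (SE 0.07, limma adjusted p = 0.0753). H2BC12 (chr6:27138293-27146858, minus strand), the most abundant H2B gene, had 328, 368 and 381 TPM in Clover and 444, 554 and 465 TPM in Z18trunc. The groups did not overlap, and the log2 difference was 0.44 (SE 0.11, limma adjusted p = 0.0835). H2BC5 (chr6:26158121-26171348, plus strand) had 28.9, 33.1 and 30.5 TPM in Clover and 41.1, 49.3 and 42.8 TPM in Z18trunc, a log2 difference of 0.51 (SE 0.10, limma adjusted p = 0.0773). H2BC4 (chr6:26113170-26123926, minus strand) had 3.61, 3.44 and 4.20 TPM in Clover and 5.24, 6.34 and 6.76 TPM in Z18trunc, a log2 difference of 0.58 (SE 0.11, limma adjusted p = 0.0773). Both were separated, and leaving out any 1 library kept their log2 differences between 0.43 and 0.67. H2BC13 (chr6:27807479-27807929, minus strand) lay the other way, with 1.91, 0.946 and 1.24 TPM in Clover and 1.36, 0.464 and 0.961 TPM in Z18trunc. Its groups overlapped (log2 difference -0.30, SE 0.21, limma adjusted p = 0.388).

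H2A genes stood close to H2B genes. Of 16 members 10 were tested, 5 were higher at an unadjusted limma p under 0.05 (background 25.6%) and 5 were separated (background 30.1%), with a median log2 difference of 0.49. After quantile normalization 3 were separated (background 16.8%) and the median was 0.42. H2AC18 (2 models in a duplicated stretch, chr1:149851062-149851594 on the plus strand and chr1:149842218-149842750 on the minus strand) had 211, 265 and 243 TPM in Clover and 303, 352 and 327 TPM in Z18trunc. The groups were separated (log2 difference 0.45, SE 0.11, limma adjusted p = 0.08). H2AC19 overlaps it on the same strand, so reads of the pair cannot be told apart, and the sum of both gave 240 ± 26.9 TPM in Clover and 328 ± 24.5 TPM in Z18trunc (SD, n = 3). H2AC6 (chr6:26124172-26124690, plus strand) had 31.9, 29.2 and 37.7 TPM in Clover and 50.7, 64.6 and 42.4 TPM in Z18trunc. Its spread was larger in Z18trunc, but the groups did not overlap (log2 difference 0.65, SE 0.17, limma adjusted p = 0.0841). H2AC8 (chr6:26216921-26217483, plus strand) had 5.90, 6.06 and 6.39 TPM in Clover and 7.42, 13.3 and 13.5 TPM in Z18trunc. Z18trunc replicate 1 lay near the Clover libraries and replicates 2 and 3 well above them (log2 difference 0.76, SE 0.21, limma adjusted p = 0.089).

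H3 genes had the lowest summed level of the 5 classes in these libraries and held the member with the largest difference. Of 13 members 9 were tested, 4 were higher at an unadjusted limma p under 0.05 (44.4%, background 25.6%) and 4 were separated (44.4%, background 30.1%), with a median log2 difference of 0.53. Both counts include H3C2, which passed the limit for testing through its Z18trunc values, with means of 0.946 TPM in Clover and 2.002 TPM in Z18trunc. After quantile normalization 3 were separated (33.3%, background 16.8%) and the median was 0.37. H3C8 (chr6:26270918-26271413, minus strand) had 3.07, 3.88 and 2.54 TPM in Clover and 9.05, 12.4 and 9.85 TPM in Z18trunc. The lowest Z18trunc value was more than double the highest Clover value, and mean coverage per base ranged from 5.83 to 25.2 reads. The ratio of means was 3.30 and the log2 difference 1.46 (SE 0.15, limma adjusted p = 0.0753, and 1.28 after quantile normalization). H3C10 (chr6:27810051-27810536, plus strand) had 6.21, 4.75 and 4.06 TPM in Clover and 7.75, 8.14 and 9.57 TPM in Z18trunc, a log2 difference of 0.67 (SE 0.15, limma adjusted p = 0.0773). H3C4 (chr6:26196784-26199293, minus strand), whose span overlaps that of H2AC7 on the same strand, had a log2 difference of 0.55 (SE 0.16, limma adjusted p = 0.0921). It had 2.97 ± 0.823 TPM in Clover and 4.76 ± 0.557 TPM in Z18trunc (SD, n = 3).

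Of the tested H3 members, H3C12 and H3C14 had lower means in Z18trunc, and both overlapped. H3C12 (chr6:27890315-27890826, minus strand) measured 1.496 ± 0.43 TPM in Clover and 1.14 ± 0.222 TPM in Z18trunc (SD, n = 3; log2 difference -0.21, SE 0.14, limma adjusted p = 0.37). H3C14 overlaps H3C15 on the same strand, and its log2 difference of -0.30 (SE 0.48) turned to 0.23 without Z18trunc replicate 3, in which nearly all reads of the pair were given to H3C15. The sum of H3C14 and H3C15 was 4.87, 1.41 and 3.29 TPM in Clover and 3.67, 4.42 and 3.67 TPM in Z18trunc, with overlap. H3C13 (chr1:149813225-149813693, minus strand), below the limit for testing, was listed at 0 in the 3 Clover libraries and at 1.18, 0.719 and 0.412 TPM in the Z18trunc libraries. It was named after its values were seen.

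H4 genes showed the least difference among the core histones, although differences between classes were not tested. Of 14 members 8 were tested and 1 was higher at an unadjusted limma p under 0.05 (12.5%, background 25.6%), and the median log2 difference of 0.14 became -0.003 after quantile normalization. H4C15, whose 2 models (chr1:149832657-149839717 on the plus strand and chr1:149854095-149861159 on the minus strand) overlap H4C14, had 22.2 ± 2.97 TPM in Clover and 28.8 ± 2.22 TPM in Z18trunc (SD, n = 3). Its own values were separated (log2 difference 0.37, SE 0.11, limma adjusted p = 0.103), but the sum of H4C14 and H4C15 overlapped between groups, at 22.8, 19.3 and 27.0 TPM in Clover and 26.8, 29.2 and 31.3 TPM in Z18trunc. H4C11 (chr6:27824092-27824480, plus strand) measured 9.91 ± 2.69 TPM in Clover and 10.1 ± 1.54 TPM in Z18trunc, and H4C12 (chr6:27831174-27831560, minus strand) 9.04 ± 2.14 and 10.1 ± 1.82 TPM (SD, n = 3). Their log2 differences of 0.05 and 0.15 were smaller than their standard errors of 0.20 and 0.19, and became -0.13 and -0.02 after quantile normalization. H4C5 (chr6:26204610-26205021, plus strand) had the smallest p of the 4 tested members that lay lower, with 2.76 ± 0.767 TPM in Clover and 1.93 ± 0.291 TPM in Z18trunc (SD, n = 3; log2 difference -0.34, SE 0.16, limma adjusted p = 0.202). After quantile normalization its groups did not overlap (log2 difference -0.51, limma adjusted p = 0.169).

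Linker histones showed small differences. Of 10 members 4 were tested and 2 were higher at an unadjusted limma p under 0.05 (background 25.6%), with a median log2 difference of 0.21. H1-4 (chr6:26156329-26157115, plus strand), which has a stem-loop and was named after its values were seen, had 1.59, 1.84 and 1.62 TPM in Clover and 2.35, 2.94 and 1.87 TPM in Z18trunc. Its groups did not overlap (log2 difference 0.33, SE 0.12, limma adjusted p = 0.145). H1-10 (chr3:129314771-129316286, minus strand) had 420, 496 and 422 TPM in Clover and 445, 469 and 446 TPM in Z18trunc. Its groups overlapped and the log2 difference was 0.03 (SE 0.09, limma adjusted p = 0.873), turning below 0 with FPKM. H1-2 (chr6:26055740-26056470, minus strand), which has a stem-loop, had 281, 332 and 311 TPM in Clover and 331, 399 and 354 TPM in Z18trunc. Clover replicate 2 lay just above Z18trunc replicate 1 (log2 difference 0.23, SE 0.10, limma adjusted p = 0.196).

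Summing the members of a class removes the division of reads among near-identical copies. Summed H3 RNA was 22.95, 20.7 and 18.8 TPM in Clover and 34.0, 38.7 and 37.7 TPM in Z18trunc, a log2 ratio of means of 0.82. Without H3C8 it was 0.58. Summed H2A RNA was 268, 320 and 313 TPM in Clover and 392, 459 and 412 TPM in Z18trunc (log2 ratio 0.49). Summed H2B RNA was 444, 500.3 and 500.002 TPM in Clover and 617, 762 and 643 TPM in Z18trunc (log2 ratio 0.49). Each of these sums was higher in every Z18trunc library than in any Clover library, and they stayed separated after quantile normalization. Summed H4 RNA was 60.1, 62.1 and 61.9 TPM in Clover and 64.1, 79.2 and 77.4 TPM in Z18trunc (log2 ratio 0.26), separated by a small margin and overlapping after quantile normalization (log2 ratio 0.09). Summed H1 RNA was 1305 ± 65.8 TPM in Clover and 1443 ± 48.0 TPM in Z18trunc (SD, n = 3; log2 ratio 0.15), also separated. Of all RNA from the 6 H1 members with a stem-loop, 99.2% was H1-2, and their sum overlapped between groups (log2 ratio 0.23).

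The members with a stem-loop were then set against the listed replacement histones. These genes were searched for a stem-loop only near the end of the model, so it is not shown that all of them lack one. The 66 members with a stem-loop summed to 1078, 1238 and 1207 TPM in Clover and 1442, 1742 and 1527 TPM in Z18trunc (log2 ratio 0.42). The 10 replacement histones summed to 2478, 2478 and 2499 TPM in Clover and 2603, 2582 and 2510 TPM in Z18trunc (log2 ratio 0.05). Within each library, the log2 of the stem-loop sum over the replacement sum was -1.20, -1.001 and -1.05 in Clover and -0.85, -0.57 and -0.72 in Z18trunc. These within-library values, which do not depend on how libraries were scaled to each other, did not overlap and differed by 0.37 between group means.

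**Figure D3:**
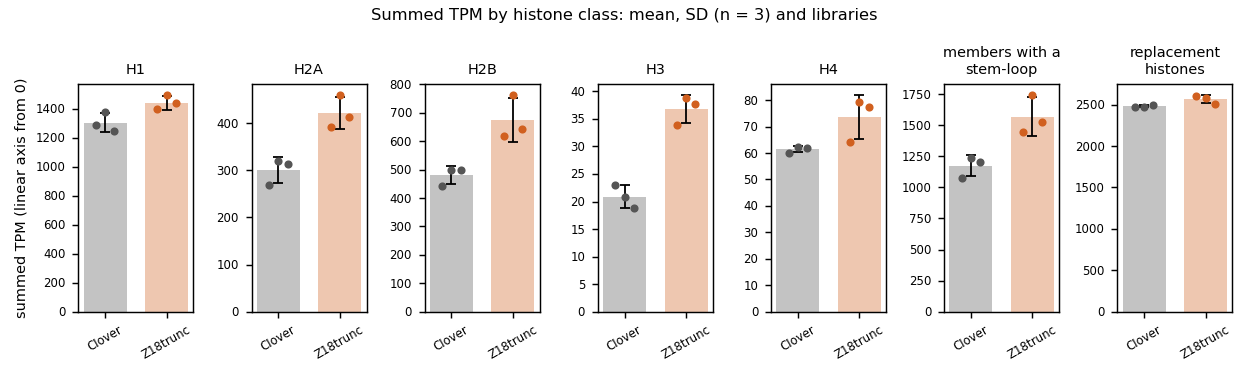
Summed TPM in each library for the 5 histone classes, for the 66 members with a stem-loop, and for the 10 replacement histones, on linear axes that start at 0; bars are group means, error bars SD (n = 3) and points the libraries. The H3, H2A and H2B panels show the widest separation of Z18trunc from Clover, and the replacement histones the narrowest in proportion to their height.

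The members were also divided by where their gene model ends. Among the 7 whose model ran on past the stem-loop, 6 were tested, 6 had an unadjusted limma p under 0.05 with a higher value in Z18trunc (background 25.6%) and 5 were separated (83.3%, background 30.1%), with a median log2 difference of 0.48. Among the 59 that ended at it, 37 were tested, 12 were higher at that p (32.4%) and 13 were separated (35.1%), with a median of 0.40. The sums had log2 ratios of 0.47 and 0.38. Most of the members whose model ran on are H2B genes (H2BC4, H2BC5, H2BC12, H2BC18 and H2BC21), and the median over all tested H2B members was also 0.48. H2B held both kinds of model. Its tested members whose model ran on had log2 differences from 0.44 (H2BC12) to 0.69 (H2BC21). Its tested members whose model ended at the stem-loop ranged from -0.30 (H2BC13) to 0.77 (H2BC8). These ranges overlapped, and a difference by model end was not tested. By stem-loop, the 25 tested members with the one shown for H2BC21 had a median log2 difference of 0.45, the 6 with the one shown for H3C8 0.55, the 5 with the one shown for H4C5 0.13 and the 3 with the one shown for H4C15 0.15. The stem-loops shown for H4C5 and H4C15 occurred only in H4 genes, so that for them stem-loop and class cannot be told apart. Those shown for H2BC21 and H3C8 each occurred in H1, H2A, H2B and H3 genes, and the difference between their medians was not tested.

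Reads past the annotated ends were available from another deposited readout, the counts at single repeat loci. Repeats that lay within 5 kb downstream of a member, outside gene spans and exons of GENCODE release 44, were counted on the strand of the histone gene. The 203 loci, downstream of 49 members, held 9.12, 10.8 and 10.4 CPM (estimated counts over the aligned fragments of the library, scaled to 1000000) in Clover and 17.2, 19.2 and 18.1 CPM in Z18trunc. All Z18trunc values lay well above all Clover values, at 10.1 ± 0.866 against 18.2 ± 1.02 CPM (SD, n = 3), a ratio of 1.80 and a log2 ratio of 0.85. With uniquely mapped counts, which were 144 to 286 per library, the log2 ratio was also 0.85, and within 2 kb it was 0.78. Without the 5 loci with most reads it was 0.98.

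The same windows read on the opposite strand, and windows upstream of the members, served as background. On the opposite strand 47 loci held 1.25, 1.21 and 1.17 CPM in Clover and 0.897, 2.09 and 1.22 CPM in Z18trunc. Upstream, 41 loci held 0.757, 0.575 and 0.764 CPM in Clover and 0.272, 1.65 and 0.762 CPM in Z18trunc. Both overlapped between the groups, and both were highest in Z18trunc replicate 2. These sums rest on 4 to 32 uniquely mapped counts per library, so a difference of the size seen downstream might not be detectable in them. Downstream of 10532 other genes, 37390 loci held 2148 ± 85.6 CPM in Clover and 2304 ± 92.0 CPM in Z18trunc (SD, n = 3; log2 ratio 0.10), separated by a small margin. The corresponding log2 ratios for other genes were 0.20 on the opposite strand and 0.22 upstream.

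**Figure D4:**
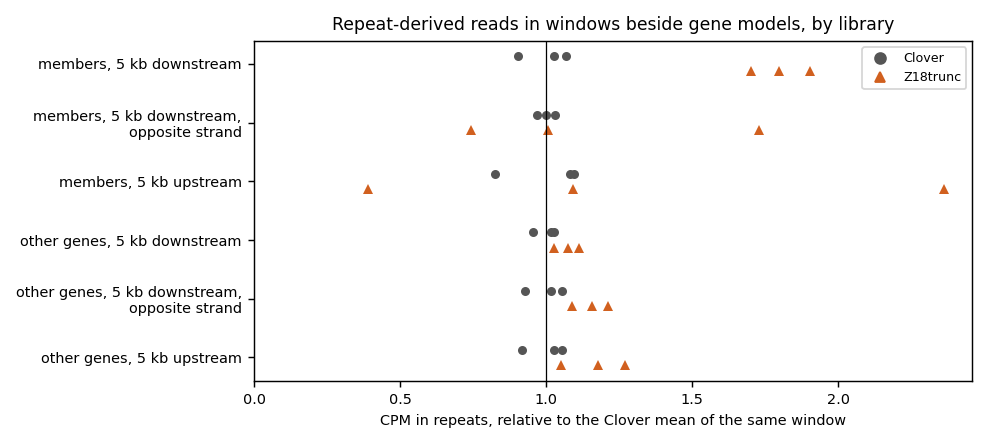
Reads in repeats beside the members and beside other genes, in each library, divided by the Clover mean of the same window; grey circles are Clover and orange triangles Z18trunc libraries, and the axis starts at 0. Downstream of members on the gene strand the 3 triangles lie near 1.8 and apart from the circles; in the 2 other member windows they scatter to both sides of 1.

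Neighbouring members share loci, so that the 49 windows hold some reads more than once, as for H2AC4 and H3C2. Windows with a locus in common were therefore joined, which left 40. Of the 19 joined windows with at least 20 counts over the 6 libraries, 9 were higher without overlap (47.4%) and 0 were lower. Of 2233 such windows downstream of other genes, 10.1% were higher without overlap and 3.45% lower. Without joining, 9 of 24 windows of members (37.5%) and 237 of 2362 windows of other genes were higher without overlap. The window with most reads lay past H2BC8, where 8 loci held 1.38, 1.31 and 1.38 CPM in Clover and 2.05, 2.69 and 2.38 CPM in Z18trunc. Past H3C8, 11 loci held 0.356, 0.575 and 0.459 CPM in Clover and 0.802, 0.658 and 1.0002 CPM in Z18trunc. Past H2BC12, which lies beyond a gene model that already runs on, 4 loci held 0.668, 0.836 and 0.713 CPM in Clover and 0.846, 1.48 and 1.29 CPM in Z18trunc. In these 3 windows the groups did not overlap. Past H2AC18, 0.134, 0.418 and 0 CPM in Clover stood against 0.223, 0.329 and 0.191 CPM in Z18trunc, with overlap. At single loci with at least 20 counts, 6 of 23 were higher without overlap (26.1%) and 0 were lower, where the shares over 2516 loci downstream of other genes were 7.79% and 4.05%.

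Genes that act on histone RNA were taken from lists. For histone pre-mRNA 3′ end processing, 7 of 18 tested genes were higher at an unadjusted limma p under 0.05 (38.9%, background 25.6%) and 0 were lower, with a median log2 difference of 0.11 (0.06 after quantile normalization). SLBP, which binds the stem-loop, measured 78.9 ± 4.12 TPM in Clover and 84.6 ± 1.10 TPM in Z18trunc. CPSF3, the endonuclease, measured 59.7 ± 3.77 and 74.8 ± 7.53 TPM, and LSM11, a U7 protein, 1.88 ± 0.0775 and 2.37 ± 0.325 TPM. ZNF473, a partner of the U7 particle, measured 7.74 ± 1.16 and 10.2 ± 0.450 TPM, and CASP8AP2, also called FLASH, 1.43 ± 0.576 and 2.33 ± 0.636 TPM (all SD, n = 3). None of these 5 passed the adjusted test, with limma adjusted p-values of 0.391, 0.0991, 0.163, 0.1 and 0.185 in the order named. Of the 18 genes, 9 were higher without overlap (background 30.1%) and 2 were lower (11.1%, background 6.73%). The 2 were SNRPB and SNRPF, Sm proteins of the U7 and other particles, named after their values were seen. SNRPB measured 937 ± 23.3 TPM in Clover and 896 ± 15.7 TPM in Z18trunc, and SNRPF 110 ± 4.96 and 102 ± 1.57 TPM (SD, n = 3).

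For histone mRNA decay, 8 of 21 tested genes were higher at an unadjusted limma p under 0.05 (38.1%, background 25.6%) and 0 were lower, with a median log2 difference of 0.22 that became 0.04 after quantile normalization. ERI1, the exonuclease that trims histone mRNA ends, measured 4.29 ± 0.665 TPM in Clover and 5.27 ± 0.480 TPM in Z18trunc. UPF1, the helicase of histone mRNA decay, measured 70.7 ± 6.51 and 72.5 ± 4.45 TPM (SD, n = 3). For histone gene transcription, 3 of 10 genes were higher (background 25.6%) and 0 lower, with a median of 0.19 (0.09 after quantile normalization). NPAT, the activator at histone genes, had 4.70, 2.39 and 3.71 TPM in Clover and 4.32, 3.96 and 5.79 TPM in Z18trunc, with overlap. None of these lists held a gene with an adjusted p under 0.05.

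S phase genes were examined because histone mRNAs follow DNA replication. Of 23 tested genes 7 were higher at an unadjusted limma p under 0.05 (30.4%, background 25.6%) and 0 were lower, with a median log2 difference of 0.03, which turned to -0.01 without Clover replicate 2. After quantile normalization 6 were higher at that p (26.1%, background 12.8%) and 1 was lower (4.35%, background 10.9%). Under that scaling 8 lay above without overlap (34.8%, background 16.8%) and 3 lay below (background 16.2%). The corresponding shares of members were 33.3% higher at that p and 28.9% above without overlap. The median S phase gene lay 0.02 higher under that scaling, and the median member 0.28. PCNA, the replication clamp, had 595.8 ± 30.7 TPM in Clover and 599.97 ± 10.8 TPM in Z18trunc. MCM2, of the replicative helicase, had 235 ± 16.0 and 222 ± 12.5 TPM, and RRM2, of ribonucleotide reductase, 229 ± 20.9 and 259 ± 8.88 TPM (SD, n = 3). The share of cells in S phase was not measured, and in bulk RNA more cells in S phase and more RNA per cell cannot be told apart.

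RNAs made without a poly(A) tail, which reach such libraries by carry-over, lay lower in Z18trunc on the median. Of 11 tested genes 1 was higher (9.09%, background 25.6%) and 2 were lower (18.2%, background 2.9%) at an unadjusted limma p under 0.05, with a median log2 difference of -0.45 that shrank to -0.04 without Clover replicate 2. RN7SK, which holds back transcription elongation, had 16.2, 39.8 and 16.5 TPM in Clover and 15.2, 12.9 and 20.5 TPM in Z18trunc. RMRP, the RNA of an RNA-processing enzyme, had 8.20, 21.9 and 9.02 TPM in Clover and 7.93, 3.99 and 8.24 TPM in Z18trunc. Clover replicate 2 was highest of all libraries for both. RN7SL1 and RN7SL2, the most abundant of the list, were instead highest in Clover replicate 1, at 1092 and 1699 TPM. TERC lay higher in Z18trunc without overlap, at 7.79 ± 1.25 TPM in Clover and 11.2 ± 0.793 TPM in Z18trunc (SD, n = 3). These last 3 were named after their values were seen. The part of such RNAs in the histone values was not tested. Without Clover replicate 2, 20 members were higher at an unadjusted limma p under 0.05, 0 were lower, and the median log2 difference of members was 0.40. The shares over all genes without that library are not given, so these counts have no background.

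**Figure D5:**
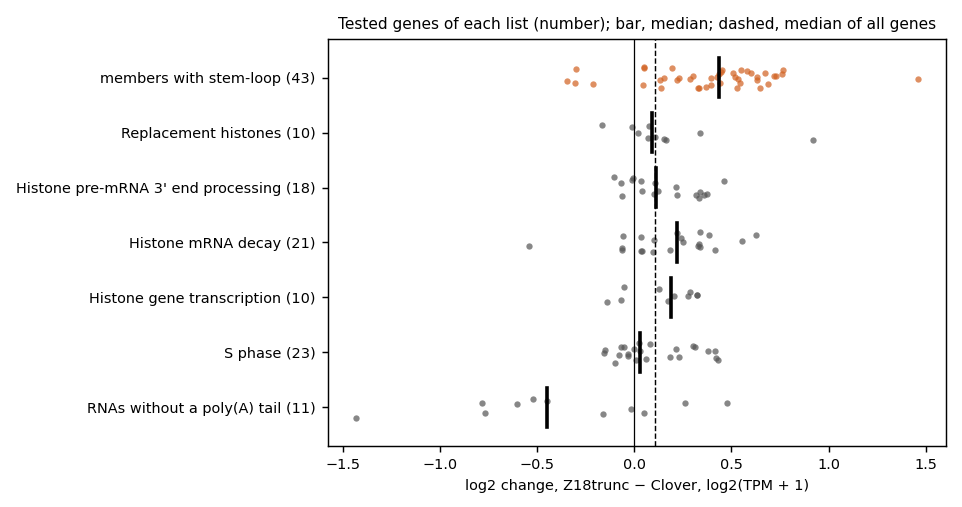
Log2 difference of Z18trunc over Clover on the log2(TPM + 1) scale for tested genes of each list, with the number of genes in brackets; each point is a gene, bars are medians and the dashed line is the median of all genes (0.11). Members with a stem-loop have a median of 0.44, replacement histones 0.09 and S phase genes 0.03.

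Histone symbols outside the pattern were looked at last. H2AW, an H2A gene with an exact stem-loop, had 67.0, 72.9 and 66.9 TPM in Clover and 91.2, 94.5 and 79.8 TPM in Z18trunc (log2 difference 0.35, SE 0.09, limma adjusted p = 0.0835). H2BS1 had 22.1, 18.5 and 21.5 TPM in Clover and 23.9, 38.1 and 37.1 TPM in Z18trunc (log2 difference 0.62, SE 0.18, limma adjusted p = 0.0958). Both were separated. The 2 other tested symbols, each with an exact stem-loop, overlapped between the groups. H2BU1 had 0.493, 4.11 and 2.60 TPM in Clover and 4.59, 2.64 and 3.89 TPM in Z18trunc (limma adjusted p = 0.389), and H4-16 had 2.31 ± 1.39 and 2.57 ± 1.67 TPM (SD, n = 3; limma adjusted p = 0.941). Among replacement histones H2AJ had the smallest p, at 42.5 ± 0.835 TPM in Clover and 54.1 ± 0.391 TPM in Z18trunc (SD, n = 3; log2 difference 0.34, SE 0.06, limma adjusted p = 0.0773). H2AZ1 measured 993 ± 24.1 and 986 ± 40.3 TPM, and H3-3B 399 ± 15.2 and 429 ± 6.34 TPM (SD, n = 3). H3-3A ranged from 1.42 to 15.6 TPM over the libraries and overlapped. H2AW, H2BS1, H2BU1, H4-16 and H2AJ were named after their values were seen.

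Promoters were compared because members of a class share elements there. In the 250 bases before the start, taken from RefSeq for 64 of the 70 members (69 promoters, GRCh38.p14) and searched on both strands, the octamer ATTTGCAT was found in 73.3% of H2A, 78.9% of H2B, 7.69% of H3, 0% of H1 and 0% of H4 promoters, and in 1.56% of 35047 promoters of other genes. The windows of some neighbouring H2A and H2B genes overlap, as for H2AC6 and H2BC4, so the same octamer can be counted for both classes. TATAAA was found in 65.2% of member promoters against 10.6%, and CCAAT in 84.1% against 31.9%, each motif being counted on its own. The promoters of the 2 members with the smallest p-values are shown, 150 bases each, with matches in capitals (octamer, TATAAA and CCAAT).
H2BC21, chr1:149886683-149886832, minus strand: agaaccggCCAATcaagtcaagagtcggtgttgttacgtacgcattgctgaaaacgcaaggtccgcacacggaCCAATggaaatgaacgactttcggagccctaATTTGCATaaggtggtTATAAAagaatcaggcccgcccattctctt
H3C8, chr6:26271414-26271563, minus strand: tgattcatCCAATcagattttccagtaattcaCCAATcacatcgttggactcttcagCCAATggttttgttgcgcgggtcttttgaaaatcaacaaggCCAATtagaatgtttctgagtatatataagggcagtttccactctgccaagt
H2BC21 held all 3 motifs in this window, and H3C8 held CCAAT alone, at 4 places. A match to these letters is a description and not a measured binding site.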

How the data were processed

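SW480 lines were made in biological triplicate per the study's methods, and titles gave each sample its group and number. The authors trimmed reads with cutadapt 4.6, mapped stranded paired-end reads of poly(A)-selected RNA to hg38 and ran SQuIRE. The deposited gene tables give TPM, FPKM and mean coverage per gene model without counts, so no counting interval can be given for a gene. The deposited repeat tables give uniquely mapped whole-number counts and the authors' estimated counts, in which multiply mapped fragments are shared among loci, and both were divided by aligned fragments here. Counting limits cover counting error only.

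TPM was summed by symbol. Genes with a mean of at least 1 TPM (13300) were fitted with limma 3.58.1 (R 4.3.3) on log2(TPM + 1), adjusted by Benjamini-Hochberg over all genes at 0.05, so fold changes of low genes are understated. The fit was tested on simulated data for Z18trunc against Clover (13300 genes, 200 changed), where it recovered 96% at a log2 change of 1 and 99% at 2, with 6.2% of calls false. The simulated noise was normal and drawn from the variances of this fit after limma had shrunk them toward a common value. In the main fit of the data H3C8, at a log2 difference of 1.46, was not called (limma adjusted p = 0.0753). The simulated recovery therefore does not give the recovery in these data. Smaller changes, such as the members' median of 0.42, were not simulated, so recovery of them is unknown. Sums and lists have no test. The members and lists were chosen with earlier results of these data known. Named members were the 3 most abundant of each class, the 5 with the smallest p in each direction (4 lay lower) and those at the limit for testing; an item is not reported here. Stem-loops of members were searched in hg38 with pysam 0.24.0, over the whole gene model and up to 300 bases past its end. Up to 2 mismatches were allowed. Repeat windows were made with bedtools 2.31.1. Strand was kept in counting repeats. Alternatives were another pseudocount, other filters, quantile normalization, FPKM, an intensity trend, a replicate block, other windows and leaving out each library; leaving out the 5 loci with most reads, joining windows that share a locus, the opposite strand and members with a stem-loop were added after the data were seen.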

Additional observations from a re-analysis of the deposited data

How the results depend on the processing

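Without any 1 library, 16 to 21 members were higher at an unadjusted limma p under 0.05 and 0 to 2 lower, 19 to 26 lay above without overlap and 0 to 2 below, 0 were called and the median log2 difference was 0.37 to 0.49. Shares over all genes are not given for the fits without a library, so these counts have no background. Fewer libraries in a group also make it easier for the groups not to overlap. Genes called numbered 1 with a pseudocount of 0.1, a minimum mean of 0.1 TPM, no filter, quantile normalization or the replicate block, 60 with the trend (members called 2), and 1 to 4 without a library, with 4 when Clover replicate 2 was left out. Members lower at an unadjusted p numbered 1 after quantile normalization, which was H4C5, and 1 with the replicate block, which was H2BC13, and 1 lay lower without overlap after quantile normalization, where the median was 0.28. Without Clover replicate 3 there were 2 members lower by each count. Same-numbered libraries did not deviate together (correlations -0.036, 0.017 and -0.037), so the block pairs nothing known. With it, 26 members (57.8%) were higher at an unadjusted limma p under 0.05 (background 24.0%). The 1 member that was lower made up 2.22%, where the background was 2.27%.

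The log2 ratio of sums was 0.12 to 0.19 for H1, 0.41 to 0.53 for H2A, 0.39 to 0.55 for H2B, 0.75 to 0.90 for H3, 0.21 to 0.35 for H4 and 0.24 to 0.33 for all members without any 1 library. It was 0.076 for H1 with FPKM, 0.23 for H1 and 0.42 for all members when members without a stem-loop were left out, 0.62 for H2A without H2AC18, 0.63 for H3 after quantile normalization, 0.58 for H3 without H3C8 and 0.087 for H4 after quantile normalization. Downstream of members it was 0.78 to 0.90 without any 1 library, 0.98 without the 5 loci with most reads, 0.36 for upstream windows and 0.21 on the opposite strand.

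List medians after quantile normalization were 0.057 for replacement histones, 0.062 for 3′ end processing, 0.041 for decay and 0.091 for transcription. Without any 1 library they were 0.058 to 0.121, 0.089 to 0.187, 0.14 to 0.27 and 0.081 to 0.24 in that order, -0.0087 to 0.084 for S phase and -0.65 to -0.039 for RNAs without a tail. Of 22 named members 4 turned direction: H1-10 with FPKM (-0.041) and without Clover replicate 1 or 3 (-0.015 to 0.105 without any 1 library), H4C11 after quantile normalization (-0.13), with FPKM (-0.014) and without Clover replicate 3 or Z18trunc replicate 3 (-0.15 to 0.22), H4C12 after quantile normalization (-0.022) and without Clover replicate 3 (-0.029 to 0.30), and H3C14 without Z18trunc replicate 3 (-0.61 to 0.23). The cause was not tested. Gene tables hold no counts, so the counting error of low members such as H3C13 is unknown.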
